A study of Homo sapiens with 12 samples.

Results

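The 9 genes studied here belong to matrix proteolysis, and their transcripts were followed in hypoxic glioblastoma cells that lacked HIF1α, HIF2α or both. They were chosen by name, with earlier results of these data known. They are the metalloproteinases MMP1, MMP2, MMP3, MMP9 and MMP14, the tissue inhibitors TIMP1 and TIMP3, the urokinase gene PLAU and the urokinase receptor gene PLAUR. All 9 were found among the 20263 genes of the deposited table, and 8 of them were tested with 11731 genes in all; TIMP3 stayed under the filter on low values.

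Messenger RNA was sequenced from U87 (U-87 MG, an established human glioblastoma line) kept at 1% O2, with 3 libraries in each of 4 groups. They comprised cells with empty vector (vector), the knockout of HIF1α (HIF1α-ko), the knockout of HIF2α (HIF2α-ko) and the dual knockout of both (HIF1α/2α-ko). All 4 groups were hypoxic, so every comparison is among hypoxic cells. The record of the sequencing gives 72 h of hypoxia, whereas the methods give 12 h for mRNA expression in general. How the knockouts were made, and whether the libraries came from separate cultures or from 1 clone, are not given in the sources used here. The p-values therefore measure only the spread between these libraries, which may be technical.

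Metalloproteinases cut collagens, gelatin and other matrix proteins, are made as inactive precursors, and are held in check by the TIMP proteins, which bind their active site. Urokinase, bound to its receptor on the cell surface, turns plasminogen into plasmin, which degrades fibrin and matrix and can activate several metalloproteinase precursors, and urokinase is itself held in check by serpins. In glioblastoma both systems are known for their part in the invasion of brain tissue, and HIF1α and HIF2α are the oxygen-regulated transcription factors of the hypoxia response.

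Values are TPM, a measure of abundance corrected for gene length and for library size, so levels of different genes can be set side by side, but it keeps no record of how deeply a library was sequenced. Among the marker genes of the line, VIM was listed at 5635 to 14690 TPM and CD44 at 399 to 1412 TPM, whereas SOX2, GFAP and S100B stayed under 1 TPM in every library. CD68 was listed at 587 to 1633 TPM, and of the other macrophage markers CSF1R was listed at 3.20 to 7.34 TPM, while PTPRC, AIF1 and ITGAM did not exceed 0.225 TPM. The summed endothelial markers reached 8.21 TPM in vector, 4.90 TPM in HIF1α-ko, 7.85 TPM in HIF2α-ko and 2.44 TPM in the dual knockout, with CDH5 up to 3.63 TPM and VWF up to 2.93 TPM, and the summed epithelial markers did not exceed 0.724 TPM. The summed TPM of the 6 markers of the line, of which 3 reached 1 TPM, was 12663 to 15516 in vector, 10016 to 11897 in HIF1α-ko, 7180 to 9318 in HIF2α-ko and 6193 to 9795 in HIF1α/2α-ko; its part in the results was not tested. The transcript of each targeted gene was lower in the groups that lack it but not absent: HIF1A averaged 124 TPM in vector, 48.5 TPM in HIF1α-ko, 86.8 TPM in HIF2α-ko and 75.5 TPM in HIF1α/2α-ko, and EPAS1, which encodes HIF2α, averaged 322, 265, 107 and 117 TPM in this order. For HIF1A the dual knockout was above HIF1α-ko (log2 difference 0.64, adjusted p = 0.029) and overlapped with HIF2α-ko (-0.19, 95% interval -0.62 to 0.23, adjusted p = 0.45), whose libraries all lay below those of vector, so the HIF1A level does not set the dual knockout apart from HIF2α-ko. A transcript level does not show whether protein was lost.

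Replicate 1 stood apart in every group, with the lowest correlations in vector. Pearson's r of log2(TPM + 1) across genes was 0.968 and 0.966 between vector replicate 1 and the other vector libraries, against 0.989 between those. In HIF1α/2α-ko, replicate 1 had r of 0.9755 and 0.9771 with the other libraries, against 0.992 between those. The values were 0.982 and 0.983 against 0.991 in HIF1α-ko, and 0.985 for both against 0.992 in HIF2α-ko. Vector replicate 1 was above both other vector libraries in 8 of the 9 genes, by 3.37 times their mean for MMP1, 2.22 times for PLAU, 2.14 times for MMP3, 1.87 times for MMP9 and 1.43 times for TIMP1, and slightly below them for PLAUR. In every knockout group, replicate 1 was the highest library for MMP2, MMP14, PLAU and PLAUR and the lowest for TIMP1. For the other genes its place varied. The share of all genes with replicate 1 at the top was not computed. The spread that replicate 1 adds enters every test below.

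Promoter windows of 300 bases, from 250 before to 50 after each start, were matched in the RefSeq table (GRCh38.p14) for 5 of the 9 genes, in 6 windows; MMP1, MMP2, MMP3 and MMP9 had no entry. Those of TIMP1, PLAU and PLAUR are printed because these are the genes whose level differed from vector in HIF1α-ko. Capitals mark the core letters of a hypoxia response element (ACGTG or GCGTG, and CACGT or CACGC where they lie on the other strand) and of an AP-1 element (TGAGTCA, or TGACTCA on the other strand). The windows, each written 5′ to 3′ on the strand of its gene, are chrX:47582186-47582485 (plus) for TIMP1, chr10:73910360-73910659 (plus) for the first start of PLAU, chr10:73910882-73911181 (plus) for its second start, and chr19:43670120-43670419 (minus) for PLAUR.
TIMP1 start 1: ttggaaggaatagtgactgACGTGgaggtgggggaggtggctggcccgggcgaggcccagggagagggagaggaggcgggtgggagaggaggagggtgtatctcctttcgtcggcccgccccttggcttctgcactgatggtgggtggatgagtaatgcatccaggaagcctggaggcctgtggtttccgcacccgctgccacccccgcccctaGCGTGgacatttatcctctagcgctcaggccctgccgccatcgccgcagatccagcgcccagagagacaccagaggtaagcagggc
PLAU start 1: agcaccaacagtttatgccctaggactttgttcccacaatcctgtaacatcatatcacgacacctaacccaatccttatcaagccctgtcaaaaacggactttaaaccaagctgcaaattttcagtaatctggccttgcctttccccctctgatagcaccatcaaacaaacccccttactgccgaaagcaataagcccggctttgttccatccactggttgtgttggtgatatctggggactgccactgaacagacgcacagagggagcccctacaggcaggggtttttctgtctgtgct
PLAU start 2: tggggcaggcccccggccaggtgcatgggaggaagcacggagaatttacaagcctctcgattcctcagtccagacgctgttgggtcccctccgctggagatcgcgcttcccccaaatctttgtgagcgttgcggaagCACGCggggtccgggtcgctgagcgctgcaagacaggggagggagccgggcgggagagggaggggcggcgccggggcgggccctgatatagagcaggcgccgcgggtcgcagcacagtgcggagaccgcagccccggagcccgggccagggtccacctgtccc
PLAUR start 1: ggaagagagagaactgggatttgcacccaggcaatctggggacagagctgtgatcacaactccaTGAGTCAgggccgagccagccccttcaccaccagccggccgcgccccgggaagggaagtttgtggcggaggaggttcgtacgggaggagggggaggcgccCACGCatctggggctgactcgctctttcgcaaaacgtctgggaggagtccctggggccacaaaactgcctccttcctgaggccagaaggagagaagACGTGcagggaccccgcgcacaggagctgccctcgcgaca

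The TIMP1 window held ACGTG at -231 and GCGTG at -36 from the start. The second window of PLAU held 1 core, GCGTG on the other strand at -113, and its first window held none. The PLAUR window held ACGTG at 11 within the transcript, GCGTG on the other strand at -86, and the AP-1 letters at -186. The windows of MMP14 and TIMP3, which are not printed, held ACGTG on the other strand at -96 and GCGTG at -213. One or the other hypoxia core lies in 48.4% of all 35116 promoter windows, and the AP-1 letters lie in 4.95%. A match describes the letters of the window and is no binding site by itself.

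In HIF1α-ko against vector, TIMP1 and PLAU rose and PLAUR fell, which is 3 of the 8 genes tested, against 26.1% of all genes tested (limma, adjusted p under 0.05). In HIF2α-ko, MMP3 rose and no other gene of the set passed, which is 1 of 8 against 11% of all genes. In HIF1α/2α-ko, PLAU rose while MMP2, MMP9 and PLAUR fell, which is 4 of 8 against 46.7% of all genes. These shares lie near the background of each comparison, so the counts say little about the set, and the results lie in the individual genes. The 3 comparisons share the vector libraries. The median change of the 8 genes was 0.49 in HIF1α-ko (0.18 for all genes tested), 0.11 in HIF2α-ko (-0.04) and 0.19 in the dual knockout (0.21) on the log2 scale. The libraries of a knockout group and of vector did not overlap for 3, 2 and 4 of the 8 genes in this order, against 39.6%, 30.5% and 50.5% of all genes. Median ratio scaling moves the all-gene median of HIF1α-ko to 0.01 and that of the dual knockout to -0.0046, so that a rise in these groups is smaller, and a fall larger, on that scale.

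**Figure D1:**
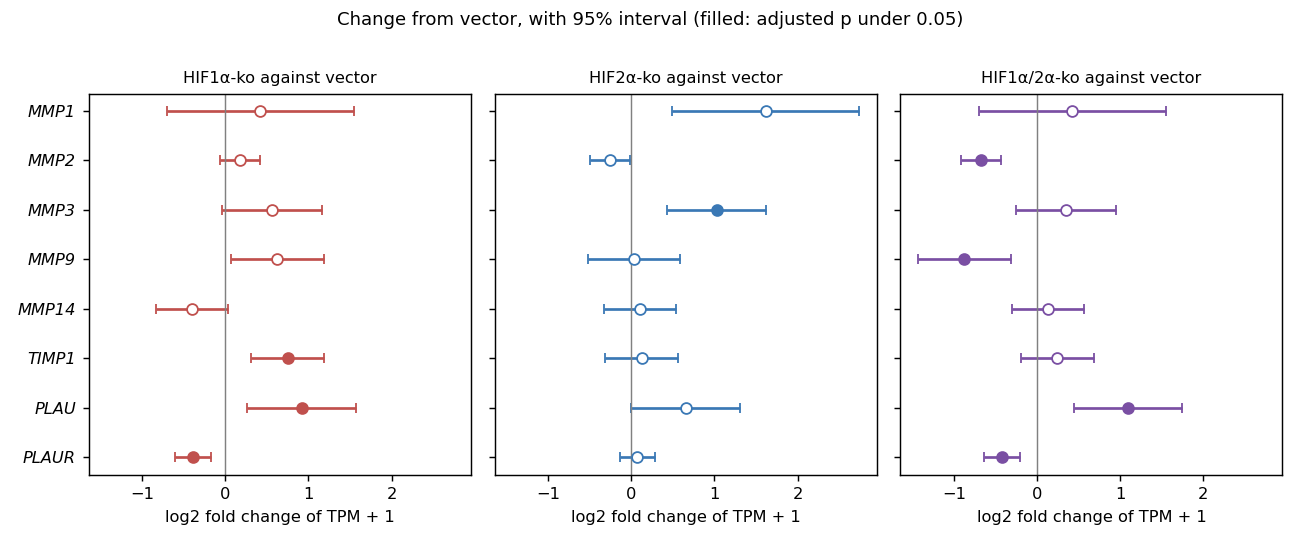
Log2 fold change of TPM + 1 from vector (x axis) for the 8 tested genes (rows) in the 3 knockout groups, with the 95% interval of the limma fit as bars; filled points have an adjusted p under 0.05. TIMP1, PLAU and PLAUR are filled in HIF1α-ko, MMP3 alone in HIF2α-ko, and MMP2, MMP9, PLAU and PLAUR in HIF1α/2α-ko.

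MMP2, the gelatinase A gene (chr16:55389700-55506691, plus strand, GRCh38 in GENCODE 29), was by far the most abundant protease transcript and fell in the dual knockout. It made up 85.4% to 93.9% of the summed TPM of the 5 metalloproteinases in every library. The 3 vector libraries held 8914, 8285 and 7852 TPM, HIF1α-ko held 9833, 9409 and 8957 TPM, HIF2α-ko held 7315, 6977 and 6649 TPM, and HIF1α/2α-ko held 6119, 4720 and 4951 TPM. No 2 groups overlapped, and the order from high to low was HIF1α-ko, vector, HIF2α-ko and HIF1α/2α-ko. Against vector (8350 ± 534 TPM, SD, n = 3) the dual knockout (5263 ± 750 TPM) was lower by a log2 difference of -0.67 (SE 0.11, adjusted p = 0.0004), and it was called under every alternative run. The steps to the single knockouts did not pass, at 0.17 (adjusted p = 0.27) for HIF1α-ko and -0.26 (adjusted p = 0.16) for HIF2α-ko. The sign of the former turned to -0.02 with median ratio scaling.

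MMP9, the gelatinase B gene (chr20:46008908-46016561, plus strand), was scarce and also fell in the dual knockout. Vector held 2.96, 1.67 and 1.50 TPM, HIF1α-ko 5.42, 2.74 and 3.03 TPM, HIF2α-ko 3.18, 1.45 and 1.75 TPM, and HIF1α/2α-ko 0.568, 0.666 and 0.632 TPM. Every dual knockout library lay below the lowest library of any other group, whereas the other 3 groups each overlapped a neighbour. The fall from 2.04 ± 0.80 to 0.622 ± 0.050 TPM (SD, n = 3) was -0.88 on the log2(TPM + 1) scale (SE 0.26, adjusted p = 0.014), a scale that understates changes of low genes; without vector replicate 1 it was -0.67 and missed the threshold (adjusted p = 0.054). The difference of HIF1α-ko from vector was 0.62 (adjusted p = 0.09), with 0.83 and an adjusted p of 0.03 without vector replicate 1. That of HIF2α-ko was 0.03 (95% interval -0.53 to 0.59).

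MMP1 and MMP3, the interstitial collagenase and stromelysin-1 genes (chr11:102789920-102798160 and chr11:102835801-102843803, both minus strand), were highest in HIF2α-ko. MMP3 was listed at 179, 74.4 and 93.0 TPM in vector and at 175, 242 and 252 TPM in HIF2α-ko. It held 192, 141 and 149 TPM in HIF1α-ko and 111, 147 and 158 TPM in HIF1α/2α-ko. The vector and HIF2α-ko libraries overlapped only through replicate 1 of each, the highest vector and the lowest HIF2α-ko library. MMP3 rose in HIF2α-ko by 1.03 (SE 0.28, adjusted p = 0.033), from 115 ± 55.7 to 223 ± 41.6 TPM (SD, n = 3). This call was lost with no filter (adjusted p = 0.064), in a fit of these groups alone (0.093), and when any of 4 libraries was left out, namely replicate 2 (0.116) and 3 (0.127) of vector and replicate 2 (0.11) and 3 (0.114) of HIF2α-ko. The differences of MMP3 in HIF1α-ko (0.56, adjusted p = 0.15) and HIF1α/2α-ko (0.35, adjusted p = 0.32) did not pass, but without vector replicate 1 both did, at 0.93 (adjusted p = 0.0058) and 0.72 (adjusted p = 0.014). MMP10, a close relative of MMP3 whose reads may be shared with it, did not exceed 0.278 TPM.

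MMP1 was scarce outside HIF2α-ko. Vector held 5.43, 1.85 and 1.37 TPM and HIF2α-ko held 3.63, 14.7 and 16.2 TPM. HIF1α-ko held 3.68, 4.16 and 3.29 TPM and HIF1α/2α-ko 1.50, 5.18 and 5.79 TPM. Replicate 1 was the lowest library of HIF2α-ko and of HIF1α/2α-ko but the highest of vector, so the neighbouring groups overlapped throughout. The difference of HIF2α-ko from vector, 1.62 (SE 0.52, 95% interval 0.49 to 2.74), missed the threshold (adjusted p = 0.066). It passed with median ratio scaling (adjusted p = 0.042) and quantile normalization (0.034), and when replicate 1 of vector (2.05, adjusted p = 0.021), of HIF2α-ko (2.22, 0.02) or of HIF1α/2α-ko (0.043) was left out. MMP1 differed from vector by 0.42 in HIF1α-ko (adjusted p = 0.57) and also in the dual knockout (adjusted p = 0.53). These values were 0.85 and 0.86 without vector replicate 1, 0.27 in both without vector replicate 2, and 0.14 in both without vector replicate 3, and that of the dual knockout was 0.88, 0.23 and 0.16 without its replicate 1, 2 and 3; none of these passed.

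MMP14, which encodes the membrane-anchored MT1-MMP that activates the MMP2 precursor (chr14:22836557-22849027, plus strand), did not pass in any knockout group in the main fit, which has no block. In HIF1α-ko, MMP14 passed without replicate 1 of every group (-0.48, adjusted p = 0.0052), a fit added after seeing the data. It also passed there with the replicate number as a block in all groups (-0.40, adjusted p = 0.01). Its levels were 753, 669 and 574 TPM in vector, 638, 468 and 422 TPM in HIF1α-ko, 874, 671 and 611 TPM in HIF2α-ko, and 936, 626 and 656 TPM in HIF1α/2α-ko. All neighbouring groups overlapped, and replicate 1 was the highest library in each group. The log2 differences from vector were -0.40 in HIF1α-ko (95% interval -0.83 to 0.03), 0.10 in HIF2α-ko (-0.33 to 0.54) and 0.14 in HIF1α/2α-ko (-0.30 to 0.57), with adjusted p of 0.15, 0.79 and 0.6, and the last turned to -0.11 with median ratio scaling.

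**Figure D2:**
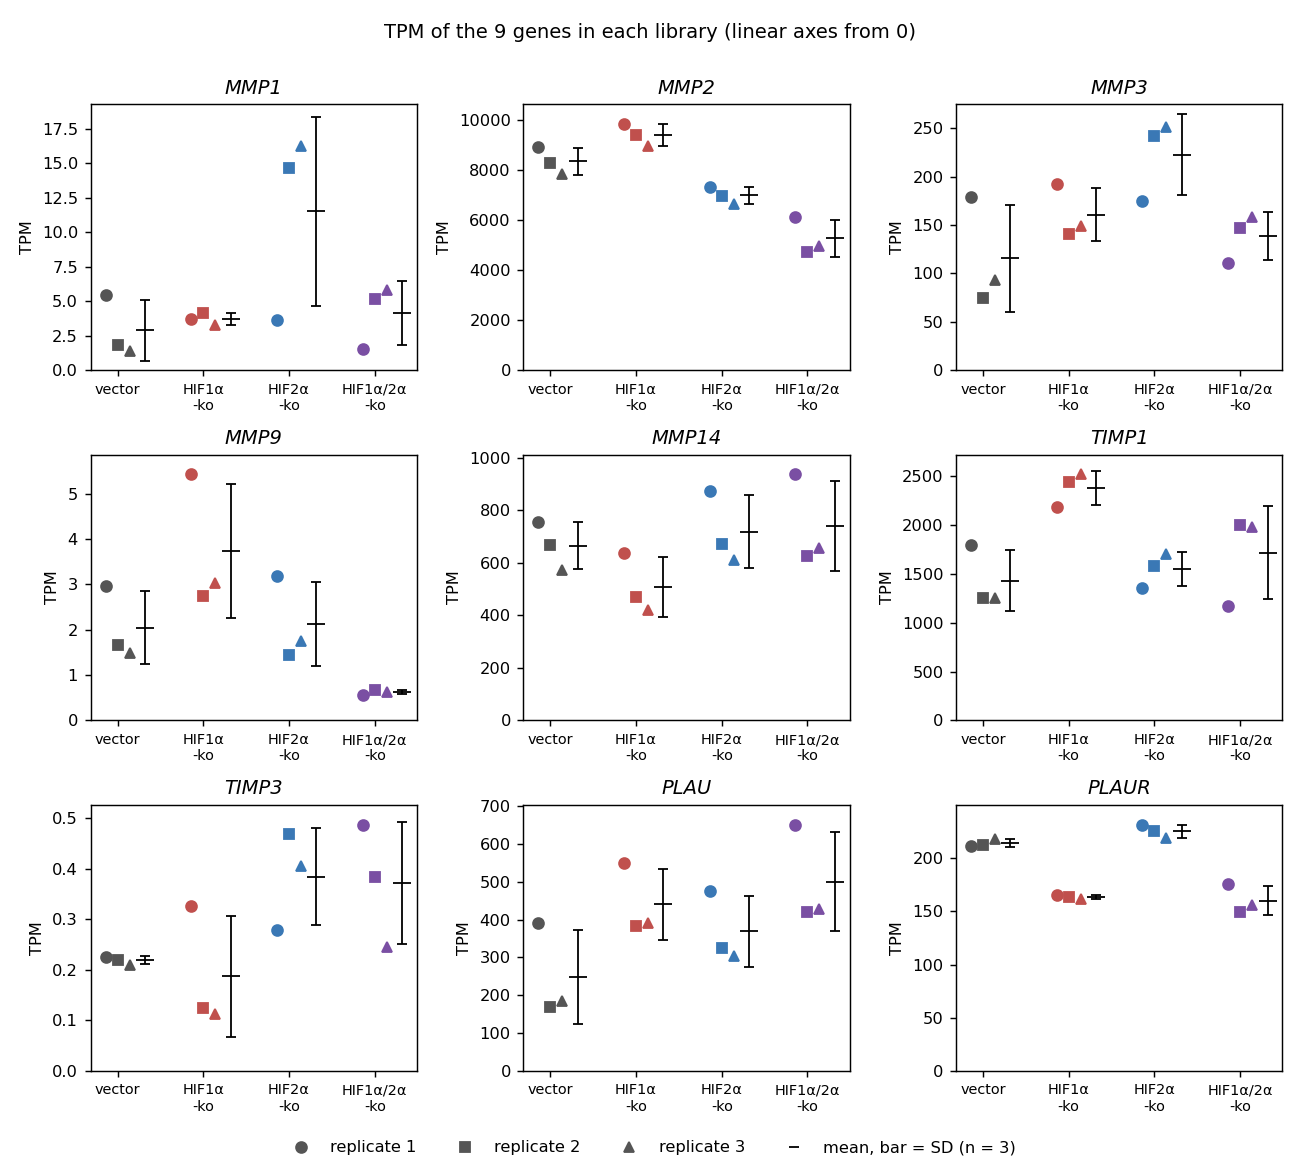
TPM (y axes, linear from 0) of the 9 genes in each of the 12 libraries by group (x axes), with replicate 1 as circles, replicate 2 as squares and replicate 3 as triangles, and the mean with its SD (n = 3) in black. MMP2 steps down from HIF1α-ko to HIF1α/2α-ko without overlap, MMP9 is at or below 0.666 TPM in the dual knockout only, and replicate 1 is the highest vector library in 8 of 9 panels.

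TIMP1, which encodes a secreted inhibitor of most metalloproteinases (chrX:47582313-47586789, plus strand), rose in HIF1α-ko. It was listed at 1793, 1249 and 1257 TPM in vector and at 2186, 2442 and 2519 TPM in HIF1α-ko. HIF2α-ko held 1357, 1584 and 1704 TPM, and HIF1α/2α-ko held 1174, 2000 and 1985 TPM. All HIF1α-ko libraries lay above every other library, while the remaining groups overlapped. The rise from 1433 ± 312 to 2383 ± 174 TPM (SD, n = 3) was 0.75 (SE 0.20, adjusted p = 0.018). It missed the threshold without vector replicate 2 (adjusted p = 0.071) or 3 (0.074) or HIF1α-ko replicate 2 (0.059) or 3 (0.067). The differences in HIF2α-ko (0.13, adjusted p = 0.74) and HIF1α/2α-ko (0.24, adjusted p = 0.35) did not pass. The latter was -0.01 with median ratio scaling, and without HIF1α/2α-ko replicate 1 it was 0.50 with an adjusted p of 0.025. SYN1, which overlaps TIMP1 on the opposite strand, was listed at no more than 0.11 TPM; whether the counting used strand is not given in the sources used here.

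TIMP3, which encodes an inhibitor held in the matrix (chr22:32801701-32863043, plus strand), was barely detected. Its values were 0.226, 0.220 and 0.210 TPM in vector, 0.326, 0.124 and 0.113 TPM in HIF1α-ko, 0.279, 0.467 and 0.405 TPM in HIF2α-ko, and 0.487, 0.383 and 0.245 TPM in HIF1α/2α-ko. No library reached 1 TPM, so no test was made. TIMP1 was thus the abundant inhibitor of the pair in every library.

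PLAU, which encodes urokinase (chr10:73909177-73917497, plus strand), was higher in each knockout group than in the lower pair of vector libraries. Vector held 390, 167 and 184 TPM, HIF1α-ko 548, 382 and 390 TPM, HIF2α-ko 476, 325 and 305 TPM, and HIF1α/2α-ko 650, 421 and 428 TPM. Replicate 1 was the highest library of every group, and vector replicate 1 reached into the range of HIF1α-ko and HIF2α-ko but not into that of HIF1α/2α-ko. PLAU rose in HIF1α/2α-ko by 1.09 (SE 0.30, adjusted p = 0.01), from 247 ± 124 to 499.8 ± 131 TPM (SD, n = 3); with median ratio scaling this was 0.84 and missed the threshold (adjusted p = 0.059). In HIF1α-ko it rose by 0.92 (SE 0.30, adjusted p = 0.041). That call was lost with no filter (adjusted p = 0.078), median ratio scaling (0.14), quantile normalization (0.053) and a fit of these groups alone (0.069). It was also lost without vector replicate 2 (0.158) or 3 (0.143), HIF1α-ko replicate 1 (0.115), 2 (0.072) or 3 (0.078), HIF2α-ko replicate 2 (0.054) or HIF1α/2α-ko replicate 3 (0.051). In HIF2α-ko the difference was 0.66 (adjusted p = 0.18), and without vector replicate 1 it was 1.04 (adjusted p = 0.012). C10orf55, which overlaps PLAU on the opposite strand, was listed at 0.626 to 1.90 TPM.

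PLAUR, which encodes the urokinase receptor (chr19:43646095-43670547, minus strand), was lower in HIF1α-ko and HIF1α/2α-ko. It held 212, 213 and 218 TPM in vector and 231, 225 and 219 TPM in HIF2α-ko. HIF1α-ko held 166, 164 and 161 TPM and HIF1α/2α-ko 175, 149 and 156 TPM. The libraries of HIF1α-ko and HIF1α/2α-ko overlapped with each other and with no library of the other groups. PLAUR fell by 0.39 on the log2 scale in HIF1α-ko (SE 0.10, adjusted p = 0.014) and by 0.42 in HIF1α/2α-ko (SE 0.10, adjusted p = 0.0039), from 214 ± 3.54 TPM to 164 ± 2.13 and 160.2 ± 13.5 TPM (SD, n = 3). The former missed the threshold in a fit of these groups alone (adjusted p = 0.059) and without HIF1α-ko replicate 3 (0.053). The difference in HIF2α-ko was 0.07 (95% interval -0.14 to 0.29, adjusted p = 0.69). In bulk RNA, less transcript per cell and fewer cells that carry it cannot be told apart, here and for every gene above.

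The dual knockout was next compared with each single knockout. MMP2 and MMP9 fell against HIF1α-ko, which is 2 of the 8 genes tested against 28.3% of all genes in either direction and 10.6% lower, by -0.84 for MMP2 (SE 0.11, adjusted p = 0.00022) and -1.50 for MMP9 (SE 0.26, adjusted p = 0.0012) on the log2 scale. MMP2, MMP9 and PLAUR fell against HIF2α-ko, which is 3 of 8 against 46.4% in either direction and 12.9% lower, by -0.42 for MMP2 (SE 0.11, adjusted p = 0.0087), -0.91 for MMP9 (SE 0.26, adjusted p = 0.012) and -0.49 for PLAUR (SE 0.10, adjusted p = 0.0014). MMP2 missed the threshold here with quantile normalization (-0.16, adjusted p = 0.19), and MMP9 missed it without HIF2α-ko replicate 1 (-0.68, adjusted p = 0.057). Leaving out 1 library brought 4 differences past the threshold that had missed it. Against HIF1α-ko, MMP14 passed without HIF1α-ko replicate 1 (0.71, adjusted p = 0.028) and TIMP1 without vector replicate 1 (-0.51, 0.049). Against HIF2α-ko, MMP1 passed without HIF2α-ko replicate 1 (-1.80, 0.0089), and MMP3 without that library (0.047) or vector replicate 1 (0.01) or 2 (0.04). These 4 also passed with all libraries under other settings, namely MMP14 with quantile normalization (0.031) and TIMP1 with median ratio scaling (0.025). MMP1 did so with median ratio scaling (0.027) or quantile normalization (0.017). MMP3 did so with median ratio scaling (0.0084), quantile normalization (0.031) or a fit of these groups alone (0.019). Thus MMP2 and MMP9 were lower in the dual knockout than in vector and in either single knockout. The median difference of the 8 genes was -0.12 against HIF1α-ko and -0.45 against HIF2α-ko, beside 0.07 and 0.23 for all genes tested.

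Libraries of the knockout groups that share a replicate number deviated together, and a fit of these 3 groups with the number as a block called more of the genes. It also called more of all genes. Against HIF1α-ko it called 5 of 8 (48.5% of all genes in this fit), adding a rise of MMP14 (0.54, adjusted p = 0.00052), a fall of TIMP1 (-0.51, adjusted p = 0.0092) and a rise of PLAU (0.17, adjusted p = 0.047); without the block these had adjusted p of 0.062, 0.079 and 0.71. Against HIF2α-ko it called 6 of 8 (62.6% of all genes), adding lower MMP1 (-1.19, adjusted p = 0.017), lower MMP3 (-0.68, adjusted p = 0.013) and higher PLAU (0.44, adjusted p = 0.0005), which had adjusted p of 0.078, 0.061 and 0.26 without it. The pairing rests on the values alone, since the labels do not say what a number marks.

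The 2 single knockouts differed from each other in MMP2, TIMP1 and PLAUR, which is 3 of the 8 genes against 25.1% of all genes. MMP2 was higher in HIF1α-ko by 0.43 (SE 0.11, adjusted p = 0.016), TIMP1 was higher by 0.63 (SE 0.20, adjusted p = 0.04), and PLAUR was lower by a difference of -0.46 (SE 0.10, adjusted p = 0.0059). With the replicate block in the knockout groups, 7 of 8 were called against 50.5% of all genes, with MMP1 (-1.20, adjusted p = 0.022) and MMP14 (-0.50, adjusted p = 0.00086) lower in HIF1α-ko, and MMP9 (0.59, adjusted p = 0.031) and PLAU (0.26, adjusted p = 0.0094) higher. With median ratio scaling, the calls of MMP2 (0.18, adjusted p = 0.5) and TIMP1 (0.37, adjusted p = 0.13) were lost, while PLAUR was called. Without HIF2α-ko replicate 1 the difference of MMP1 passed (-1.81, adjusted p = 0.022), and without HIF1α-ko replicate 1 that of MMP14 did (-0.68, 0.031). The MMP2 call was also lost with no filter (adjusted p = 0.053) and without HIF1α-ko replicate 2 (0.056) or HIF2α-ko replicate 3 (0.059). The TIMP1 call was also lost with no filter (0.074), quantile normalization (0.089) and no mean-variance trend (0.053), and without HIF1α-ko replicate 2 (0.117) or 3 (0.119) or HIF2α-ko replicate 1 (0.137), 2 (0.082) or 3 (0.06).

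Whether the effect of 1 knockout differed with the other was tested by the interaction term, which takes both single changes away from the dual change. It was below 0 for MMP2 (-0.59, SE 0.16, adjusted p = 0.022), MMP3 (-1.24, SE 0.39, adjusted p = 0.041) and MMP9 (-1.53, SE 0.36, adjusted p = 0.012), which is 3 of the 8 genes, all lower, against 20.6% of all genes in either direction and 7.35% lower. The dual knockout thus held less of these 3 transcripts than the single changes add up to. For MMP9 the single changes were 0.62 and 0.03 and the dual change was -0.88. For MMP3 they were 0.56 and 1.03 against 0.35, and for MMP2 0.17 and -0.26 against -0.67. The terms of MMP1 (-1.61, adjusted p = 0.14), TIMP1 (-0.64, adjusted p = 0.13), PLAU (-0.48, adjusted p = 0.45), PLAUR (-0.11, adjusted p = 0.62) and MMP14 (0.43, adjusted p = 0.3) did not pass. Of the targeted genes, HIF1A had a term that passed (1.15, adjusted p = 0.013) and EPAS1 did not (0.41, adjusted p = 0.17). The HIF1A transcript thus fell less in the dual knockout than the single changes add up to. The MMP9 term passed under every alternative run. The MMP2 term missed the threshold with no filter (adjusted p = 0.07), median ratio scaling (0.064) and quantile normalization (0.062), and without vector replicate 3 (0.055), HIF2α-ko replicate 2 (0.052) or HIF1α/2α-ko replicate 2 (0.057) or 3 (0.06). The MMP3 term missed it with no filter (0.076) and when any 1 library was left out other than vector replicate 1 or HIF2α-ko replicate 1 (adjusted p between 0.054 and 0.096). The MMP1 term passed without HIF2α-ko replicate 1 (-2.22, adjusted p = 0.03). The TIMP1 term passed without vector replicate 1 (-0.81, adjusted p = 0.044) and with median ratio scaling (-0.74, adjusted p = 0.044).

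**Figure D3:**
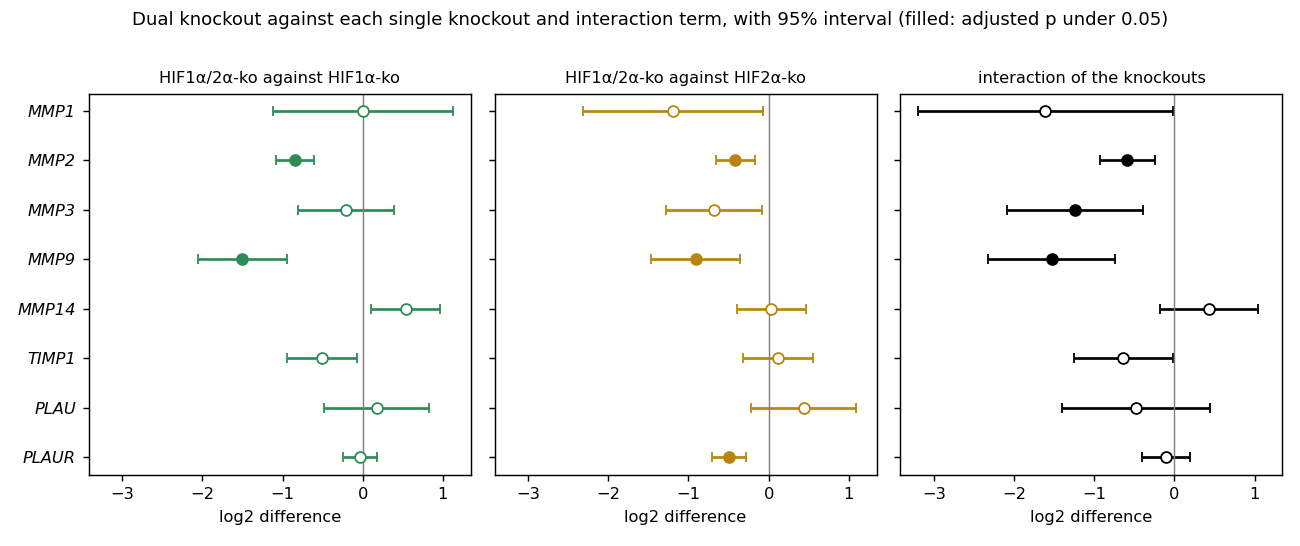
Log2 difference (x axis) of HIF1α/2α-ko from HIF1α-ko, from HIF2α-ko, and the interaction term, for the 8 tested genes (rows), with the 95% interval of the limma fit without a block as bars; filled points have an adjusted p under 0.05. MMP2 and MMP9 are filled and below 0 in all 3 panels, PLAUR against HIF2α-ko only, and MMP3 in the interaction only.

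Ratios of 2 transcripts within a library do not depend on the factor by which a library was scaled. The ratio of PLAU to PLAUR was 1.84, 0.788 and 0.842 in the vector libraries and 2.06, 1.44 and 1.39 in those of HIF2α-ko. It was 3.31, 2.33 and 2.41 in those of HIF1α-ko and 3.71, 2.81 and 2.75 in those of the dual knockout. All libraries of HIF1α-ko and of the dual knockout lay above those of vector and HIF2α-ko in this ratio. The ratio of MMP1 to TIMP1 was between 0.00267 and 0.00951 in HIF2α-ko and between 0.00109 and 0.00303 in all other libraries, so that the groups overlapped through HIF2α-ko replicate 1. The ratio of MMP14 to TIMP3 ranged from 1436 to 3779, and the groups overlapped except that the dual knockout (1633 to 2680) lay below vector (2733 to 3334). TIMP3 lay between 0.113 and 0.487 TPM and did not pass the filter, so this separation rests on very low values. MMP14 itself did not differ between these groups (0.14, limma adjusted p = 0.6). No test was made of these ratios.

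**Figure D4:**
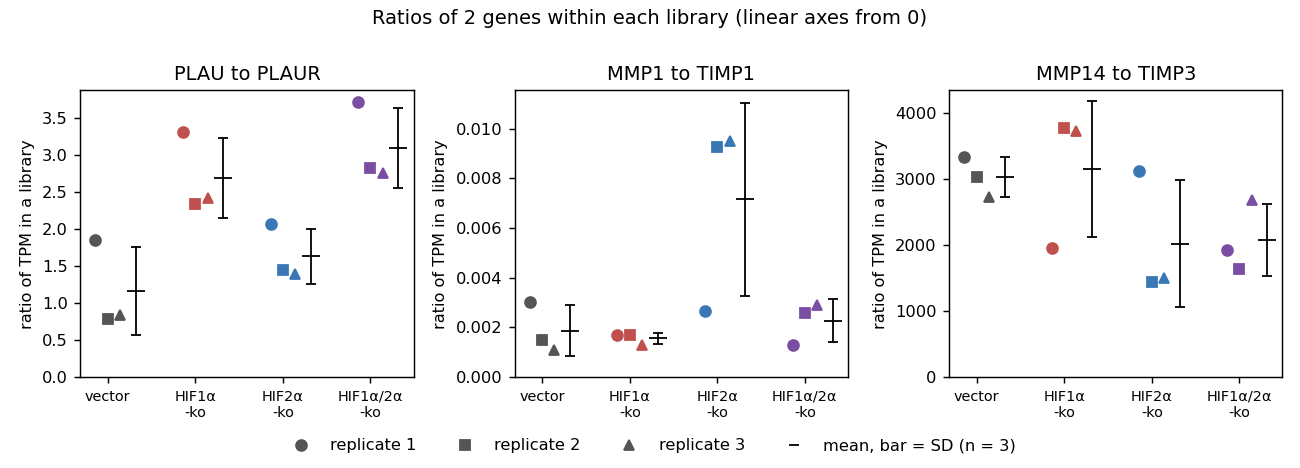
Ratio of the TPM of 2 genes within each library (y axes, linear from 0) by group (x axes), with symbols by replicate number and the mean with its SD (n = 3) in black. PLAU to PLAUR is 2.33 or higher in HIF1α-ko and HIF1α/2α-ko and 2.06 or lower in the others, and MMP1 to TIMP1 reaches 0.00951 in HIF2α-ko. MMP14 to TIMP3 is 2680 or lower in the dual knockout and 2733 or higher in vector, with TIMP3 under 1 TPM in every library.

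The wider protease system was covered by 5 lists with 55 genes, of which 34 were tested. In HIF1α-ko 10 rose and 3 fell (13 of 34 against 26.1% of all genes), in HIF2α-ko 1 rose and 0 fell (1 of 34 against 11%), and in HIF1α/2α-ko 6 rose and 9 fell (15 of 34 against 46.7%). Without vector replicate 1, 19 of them were called in HIF1α-ko (35.8% of all genes in that fit) and 8 when HIF2α-ko was compared (21.3%). In HIF1α-ko 8 were called without vector replicate 3 (14% of all genes), HIF1α-ko replicate 2 (14.4%) or HIF1α-ko replicate 3 (13.2%). Their median change was 0.42, 0.10 and -0.10 in these groups, beside 0.18, -0.04 and 0.21 for all genes tested. The genes named below are the pair with the smallest p of each list in each group.

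In the plasminogen system (7 of 9 genes tested), 2 rose and 1 fell in HIF1α-ko, and 1 rose and 2 fell in the dual knockout. PLGRKT, a plasminogen receptor of the cell surface, rose by 0.79 in HIF1α-ko (adjusted p = 0.015) and by 1.51 in the dual knockout (adjusted p = 9.1e-05), and ANXA2, which binds plasminogen and its activator at the surface, fell by 0.61 in HIF1α-ko (adjusted p = 0.011). LRP1, an endocytic receptor that clears proteases bound to their inhibitors, fell by 0.60 in the dual knockout (adjusted p = 0.0013). PLAT, which encodes tissue plasminogen activator, had 0.71 in HIF2α-ko (adjusted p = 0.21), and passed there without vector replicate 1 (1.25, adjusted p = 0.001). SERPINB2, which encodes an inhibitor of urokinase, had 1.74 in HIF2α-ko (adjusted p = 0.052), which passed without replicate 1 of vector (0.024), of HIF2α-ko (0.014) or of HIF1α/2α-ko (0.033). PLGRKT no longer passed in HIF1α-ko when vector replicate 3 was left out (0.06), nor when replicate 2 (0.054) or 3 (0.061) of HIF1α-ko was. PLG itself was listed at 0 in every library, and SERPINF2 was not tested.

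Among the other metalloproteinases (4 of 14 tested), MMP15, a membrane-anchored member, rose by 0.62 in HIF1α-ko (adjusted p = 0.012) and by 1.13 in the dual knockout (adjusted p = 9.8e-05), from 1.49 TPM in vector to 2.81 and 4.44 TPM, and had 0.41 in HIF2α-ko (adjusted p = 0.11, and 0.049 without vector replicate 1). MMP15 missed the threshold in HIF1α-ko with median ratio scaling (adjusted p = 0.055) and quantile normalization (0.1). MMP24, also membrane-anchored, fell by 0.60 in HIF1α/2α-ko (adjusted p = 0.016), and MMP17 had 0.45 in HIF1α-ko (adjusted p = 0.11) and 0.61 in HIF2α-ko (adjusted p = 0.062); both passed without vector replicate 1 (0.045 and 0.023), and the second without HIF1α/2α-ko replicate 1 (0.042). MMP7, MMP8, MMP10, MMP11, MMP12, MMP13, MMP16, MMP21, MMP25 and MMP28 were not tested. In the ADAM and ADAMTS list (11 of 18 tested), ADAMTS1, which cleaves the proteoglycans aggrecan and versican, fell by 1.82 in HIF1α-ko (adjusted p = 0.00057), from 272 TPM in vector to 73.4 TPM, and had 0.81 in HIF2α-ko (adjusted p = 0.053, and 0.048 without vector replicate 2). The difference in HIF2α-ko was only 0.46 without vector replicate 1, which held 159 TPM against 328 and 330 TPM in the other vector libraries. ADAM8 rose by 1.05 in HIF2α-ko (adjusted p = 0.022), and ADAM12 fell by 1.26 in HIF1α/2α-ko (adjusted p = 0.00096). ADAMTS14, a procollagen N-proteinase, averaged 0.133 TPM in vector, 0.837 TPM in HIF1α-ko, 0.0724 TPM in HIF2α-ko and 1.82 TPM in the dual knockout. Its differences from vector were 0.70 in HIF1α-ko (adjusted p = 0.0033) and 1.32 in the dual knockout (adjusted p = 1.4e-05). It entered the test only through the dual knockout libraries, the only ones at 1 TPM or above, so these p-values depend on that filter. The ADAM8 call was lost without replicate 2 (0.076) or 3 (0.096) of vector or replicate 1 (0.064), 2 (0.069) or 3 (0.068) of HIF2α-ko. ADAMTS2, ADAMTS3, ADAMTS4, ADAMTS5, ADAMTS7, ADAMTS9 and ADAMTS10 were not tested.

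Of the other inhibitors (3 of 4 tested), TIMP4 rose by 0.62 in HIF1α-ko (adjusted p = 0.024) and by 1.09 in the dual knockout (adjusted p = 0.00035), from 96.7 TPM in vector to 149.7 and 209 TPM, and had 0.36 in HIF2α-ko (adjusted p = 0.22). TIMP4 missed the threshold in HIF1α-ko without replicate 2 (0.053) or 3 (0.064) of vector or 2 (0.094) or 3 (0.075) of HIF1α-ko. RECK, a membrane-bound inhibitor, did not pass, with 0.33 in HIF1α-ko (adjusted p = 0.13, and 0.038 without vector replicate 1), -0.36 in HIF2α-ko and -0.13 in the dual knockout, and A2M was not tested. Among the cathepsins and related genes (9 of 10 tested), the lysosomal protease genes CTSB and CTSK rose in HIF1α-ko by 0.50 and 0.84 (adjusted p = 0.003 and 0.0092). The CTSB call was lost with median ratio scaling (0.30, adjusted p = 0.13). CTSL rose by 0.65 and the heparanase gene HPSE fell by 0.83 in HIF1α/2α-ko (adjusted p = 0.0056 and 0.0016). In HIF2α-ko CTSB had -0.27 and CTSS 0.57 (adjusted p = 0.083 and 0.084), and CTSZ was not tested.

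**Figure D5:**
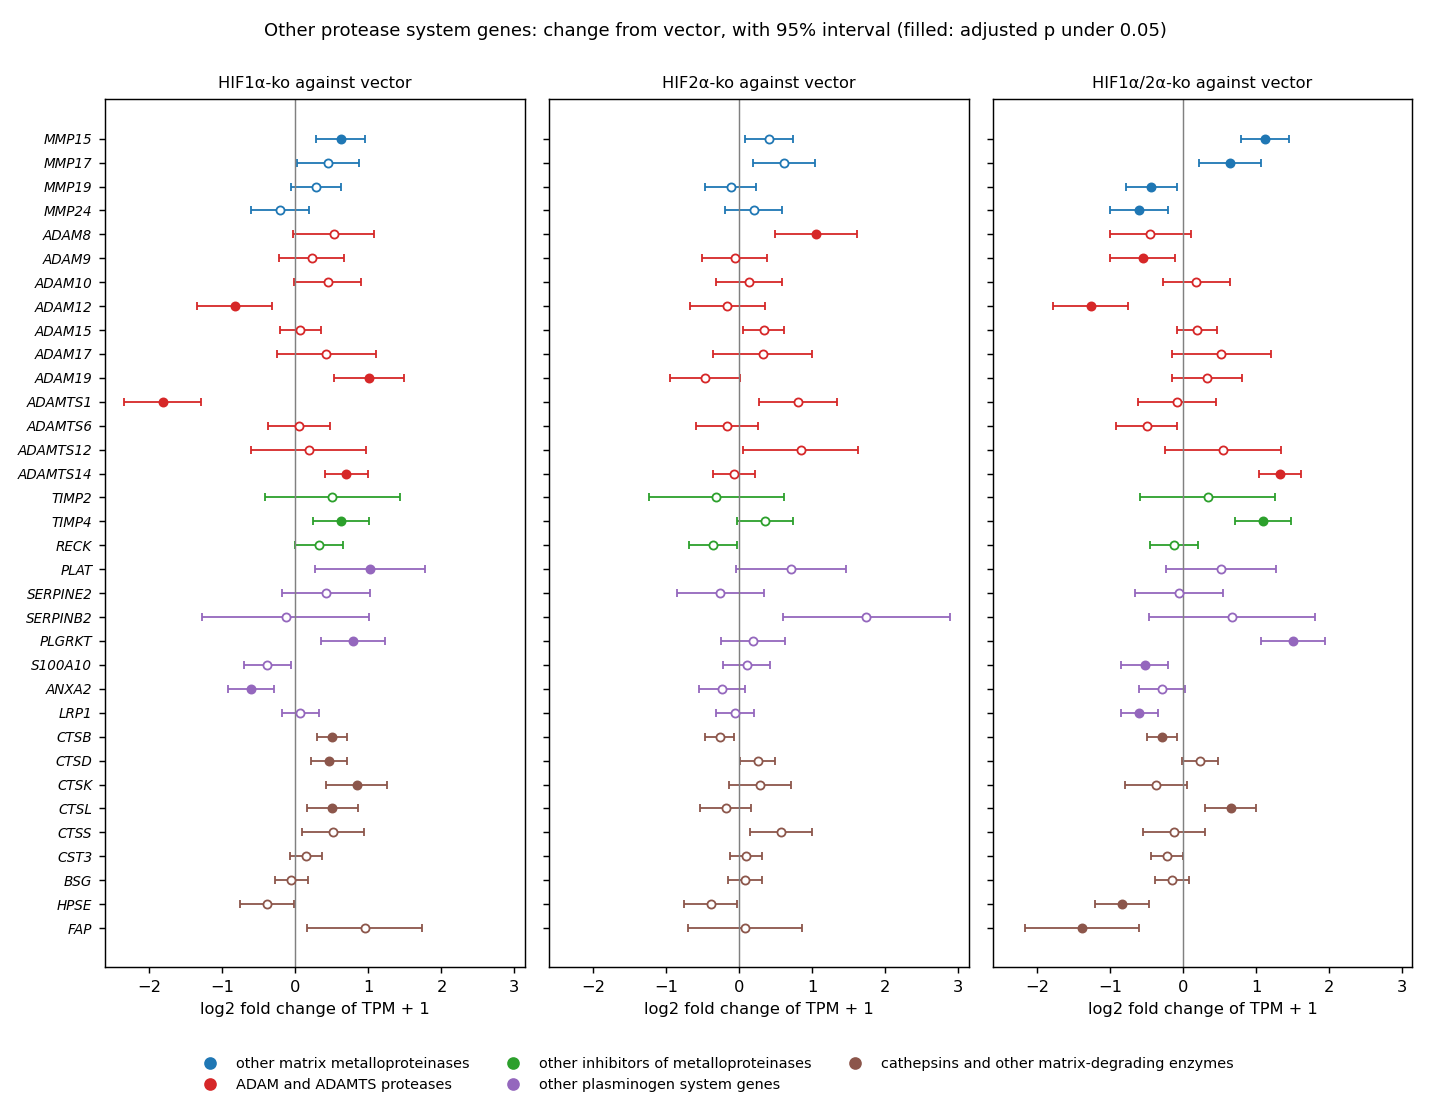
Log2 fold change of TPM + 1 from vector (x axis) of the 34 tested genes of the 5 lists (rows, coloured by list) in the 3 knockout groups, with the 95% interval of the limma fit as bars; filled points have an adjusted p under 0.05. There are 13 filled points in the HIF1α-ko panel, 1 in the HIF2α-ko panel and 15 in the dual knockout panel.

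The genes with the most similar pattern were sought for each of the 8 tested genes among all genes tested, as those with the smallest root mean square distance in log2(TPM + 1), each centred on its own mean over the 12 libraries. SERPINB2 (0.34) and PTGS2 (0.40) lay nearest to MMP1, and JUN (0.08) and GM2A (0.11) nearest to MMP2. C19orf81 (0.21) and SLIT3 (0.22) lay nearest to MMP3, LRG1 (0.19) and C1QTNF1 (0.21) to MMP9, and REEP4 (0.12) and RITA1 (0.13) to MMP14. EIF2AK3 (0.11) and SLC35G2 (0.12) lay nearest to TIMP1, MCAM (0.15) and SEC13 (0.18) to PLAU, and DDB2 (0.10) and ABCA2 (0.11) to PLAUR. For comparison, the genes themselves varied about their own means by 0.87 (MMP1), 0.33 (MMP2), 0.49 (MMP3), 0.60 (MMP9), 0.31 (MMP14), 0.37 (TIMP1), 0.55 (PLAU) and 0.23 (PLAUR) on the same measure. SERPINB2 was, like MMP1, highest on average in HIF2α-ko, with 28.0 TPM there against 6.86 TPM in vector, 5.74 TPM in HIF1α-ko and 11.9 TPM in the dual knockout. Its libraries held 8.98, 35.1 and 39.9 TPM in HIF2α-ko and 11.2, 4.52 and 4.83 TPM in vector. As for MMP1, HIF2α-ko replicate 1 lay below vector replicate 1.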

How the data were processed

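mRNA-seq libraries of U87 cells under hypoxia were analysed from the table of TPM values that the authors deposited, 1 column per library, with 12 of 12 columns used. Per the labels, libraries were made with a commercial mRNA-seq kit; the submitters' processing notes name FastQC 0.11.2, Trimmomatic 0.36, HISAT2 2.0, bedtools 2.26.0 and GRCh38. The counting program and the annotation are not given in the sources used here. TPM keeps no depth (columns summed to 999955 to 999982), so no counting error or detection limit is given. Columns whose names carry no knockout code were assigned to vector. Symbols came from a table of gene names (20148 genes) and GENCODE 29 (76 genes); 39 had none.

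After a filter that kept 11731 genes (TPM not below 1 in 3 or more libraries), log2(TPM + 1) was modelled in all 4 groups at once by limma 3.58.1 (R 4.3.3), using its trended empirical Bayes step. The p-values were adjusted by Benjamini-Hochberg within each contrast over all genes tested, at 0.05. The genes, lists and tests were chosen with earlier results of these data known. Named by rule were the 9 genes, the 2 tested genes of each other list with the smallest p in each contrast against vector, those of a list not tested, and the 2 nearest genes by distance. A gene of the lists is not reported here, and counts over the lists leave it out.

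Alternatives changed the pseudocount (0.1), the filter (none, or mean TPM of 5), the scaling (median ratio or quantile), the libraries in the fit (compared groups only, or each of the 12 left out), the trend (none) and the blocking (replicate number in all groups or in the knockout groups). A fit without replicate 1 of every group was added after seeing the data. Deviations of same-numbered libraries from their group means correlated at Pearson's r of 0.196 to 0.508 among the knockout groups. Between vector and a knockout group they correlated at -0.0265 to 0.163. The main fit treated no libraries as paired, and the replicate number was a block only in these alternatives. Pairing within the knockout groups rests on the values alone. The script was tested on simulated data. Promoter windows came from RefSeq (GRCh38.p14) and positions from GENCODE 29. Tables were made in Python 3.11.15 (pandas 2.3.3, numpy 2.4.6), and figures with matplotlib 3.10.9.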

Additional observations from a re-analysis of the deposited data

Results flagged for a closer look

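By limma's test of the interaction term, the dual change differed from the sum of the single changes for MMP2, MMP3 and MMP9. The term was -0.59 for MMP2 (95% interval -0.93 to -0.25, adjusted p = 0.022), -1.24 for MMP3 (-2.09 to -0.39, adjusted p = 0.041) and -1.53 for MMP9 (-2.32 to -0.74, adjusted p = 0.012) on the log2 scale. For MMP9, all 3 dual knockout libraries were below 1 TPM, where the pseudocount of 1 weighs most, and the term was past the threshold under all alternatives run. For MMP3, vector replicate 1 held 179 TPM against 74.4 and 93.0 TPM in the other vector libraries, and the term was past the threshold without it, but it missed the threshold with no filter (adjusted p = 0.076) and without any 1 of 10 other libraries (0.054 to 0.096). The MMP2 term missed it under 7 alternatives (0.052 to 0.07). HIF1A itself had a term of 1.15 (adjusted p = 0.013), with an average of 48.5 TPM in HIF1α-ko and 75.5 TPM in the dual knockout. Whether this bears on the terms of MMP2, MMP3 and MMP9 was not tested.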

How the results depend on the processing

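Over the 8 tested genes and 7 contrasts, 1185 alternative values were computed, of which 1028 kept their direction and their side of the threshold, 58 lost the call, 75 gained it and 24 turned in direction. The cause was not tested, except that a fit of fewer libraries or more genes changes the adjustment by its construction. The fit of the groups compared only was not run for the interaction. TPM keeps no depth, so what depth limits is unknown; MMP1, MMP9 and TIMP3 lie at low TPM.

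For the 9 genes, the count called in HIF1α-ko was 1 in a fit of these groups only (18.3% of all genes) and 5 with the replicate block (33.8%). It was 8 without replicate 1 of every group and 0 to 5 with 1 library left out (13.2% to 35.8%). In HIF2α-ko it was 0 with no filter (6.93%) or these groups only (4.04%). It was 2 with median ratio scaling (11.4%), quantile normalization (12.7%) or the block (17.6%). It was 5 without replicate 1 of every group and 0 to 3 with 1 library left out (4.02% to 21.3%). In HIF1α/2α-ko it was 7 without replicate 1 of every group. That fit, added after seeing the data, called 6461, 4283 and 7550 of all 11731 genes in these comparisons. Of the other protease system genes, 8 to 19 were called in HIF1α-ko with 1 library left out. In HIF2α-ko it was 3 at a mean TPM of 5 (14.6% of all genes) or with quantile normalization and 4 with median ratio scaling. It was 0 with these groups only, 10 with the block and 0 to 8 with 1 library left out. For the other fits the shares of all genes are those given above.

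For the dual knockout against HIF1α-ko the count was 1 at a mean TPM of 5 (31.5% of all genes), where MMP9 was not tested. It was 5 with the knockout-only block (48.5%) or without replicate 1 of every group (45%). Against HIF2α-ko it was 5 with median ratio scaling (44.4% of all genes), 6 with that block (62.6%) and 7 without replicate 1 (60.7%). For the single knockouts it was 1 with no filter (17.5% of all genes) or median ratio scaling (20%) and 5 with the block (34%). It was 7 with the knockout-only block (50.5%), 8 without replicate 1 (47.1%) and 1 to 4 with 1 library left out (12.4% to 31.9%). For the interaction it was 1 with no filter (13.2%), 7 without replicate 1 (43%) and 1 to 4 with 1 library left out (13.1% to 30.4%). The block over all 4 groups, where vector shares only a number with the knockout groups, brought MMP14 (-0.40, adjusted p = 0.01) and MMP9 (0.62, 0.028) past the threshold in HIF1α-ko, PLAU in HIF2α-ko (0.66, 0.011) and MMP14 in the interaction (0.43, 0.034). It called 33.8%, 17.6% and 27.6% of all genes in these comparisons.

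Directions that turned belonged to values that had not passed. With median ratio scaling these were MMP2 in HIF1α-ko (-0.025), MMP14 (-0.11) and TIMP1 (-0.0063) in HIF1α/2α-ko, and against HIF2α-ko MMP14 (-0.27) and TIMP1 (-0.19) in the dual knockout. MMP1 in the dual knockout against HIF1α-ko turned with a pseudocount of 0.1 (-0.046), median ratio scaling (-0.045) and quantile normalization (-0.067), and ranged from -0.26 to 0.46 with 1 library left out; MMP3 there was 0.074 without replicate 1 of every group. With 1 library left out, MMP9 (-0.20 to 0.24) and MMP14 (-0.047 to 0.21) in HIF2α-ko, MMP14 in HIF1α/2α-ko (-0.045 to 0.24), PLAU (-0.031 to 0.34) and PLAUR (-0.10 to 0.015) against HIF1α-ko, and MMP14 (-0.15 to 0.18) and TIMP1 (-0.014 to 0.37) against HIF2α-ko also crossed 0.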

Other observations

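TIMP2, an inhibitor that also takes part in the activation of the MMP2 precursor, was chosen after its values were seen. It was listed at 228, 189 and 76.3 TPM in vector, 215, 216 and 204 TPM in HIF1α-ko, 163, 188 and 55.9 TPM in HIF2α-ko, and 196, 165 and 206 TPM in HIF1α/2α-ko. Replicate 3 of vector and of HIF2α-ko lay below every other library.

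FAP, which encodes a collagen-cleaving surface protease, was also chosen after its values were seen. It held 48.7, 12.1 and 18.0 TPM in vector, 40.0, 49.1 and 42.3 TPM in HIF1α-ko, 18.6, 24.6 and 28.1 TPM in HIF2α-ko, and 8.26, 8.07 and 7.32 TPM in HIF1α/2α-ko. It fell in the dual knockout by 1.38 on the log2 scale (adjusted p = 0.0076), or by 0.83 without vector replicate 1 (adjusted p = 0.0057), and its interaction term of -2.41 (adjusted p = 0.0075) was below 0, as for MMP2, MMP3 and MMP9. Of the other genes of the cathepsin list, also picked after their values were seen, CTSK had an interaction term of -1.50 (adjusted p = 0.0038) and CTSS of -1.20 (adjusted p = 0.011); terms below 0 that passed numbered 6 of the 9 tested genes of that list, 1 of 7 in the plasminogen list, 1 of 11 in the ADAM and ADAMTS list, where 1 above 0 also passed, 0 of 4 other metalloproteinases and 0 of 3 other inhibitors, which is 8 of 34 in all (limma) against 7.35% of all genes tested.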
